A study of Danio rerio with 20 samples.

Results

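The cytochrome P450 family 1 genes of the zebrafish (Danio rerio) were followed in whole larvae kept in water with an extract of treated wastewater. The members were the 5 genes of the count table with the symbols cyp1a (ENSDARG00000098315), cyp1b1 (ENSDARG00000068934), cyp1c1 (ENSDARG00000101195), cyp1c2 (ENSDARG00000101789) and cyp1d1 (ENSDARG00000035569), of 32520 genes in all. They were taken by their symbols, with earlier results of these data known, and all 5 were among the 23121 genes tested. The larvae were wild type in every group and had reached 5 days post fertilisation. SEC larvae had been exposed through the water from day 4 to day 5 to the extract of a secondary effluent at a strength given as 20x. CTRL larvae served as their controls, and extracts of 2 sampling campaigns, JUN20 and OCT20, each had separate controls. The 4 groups each held 5 libraries, each made from 10 pooled larvae. Neither the composition of the extracts nor the vehicle of the controls is stated in the labels.

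CYP1 enzymes are membrane-bound monooxygenases that oxidise planar aromatic compounds, among them polycyclic aromatic hydrocarbons, and also some endogenous substrates such as estradiol. Their genes are the classic targets of the aryl hydrocarbon receptor (AHR), a ligand-activated transcription factor that enters the nucleus, pairs with ARNT and binds response elements in target promoters. In zebrafish the receptor Ahr2 carries most of the response to dioxin-like compounds, and the AHR repressors, themselves targets, dampen it. Fish carry CYP1C and CYP1D genes beside CYP1A and CYP1B1, and cyp1d1 of the zebrafish is known as a member that classic AHR agonists do not induce. The inducible members respond in many larval tissues, among them liver, gut, heart, vessels and skin.

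Libraries held 28.8 to 59.9 M counts, where M stands for the sixth power of 10, and the fewest counts behind a member in any library were 93, for cyp1c2. Levels are counts scaled by TMM to a library total of 1 M (CPM) and are given as mean ± SD over n = 5 pools. Log2 changes carry their standard error, and p-values, from edgeR's quasi-likelihood test, are adjusted over the whole set of tested genes, with a gene called under 0.05. The labels do not say if the pools stem from separate spawns, so p-values measure the spread between pools. This spread was estimated per gene in common over the 4 groups, so tests within October are not set against the October spread alone. The leading component of the deviations from the group means held 23.0% of their variance and spread the October pools, from -0.46 to 0.41, more than the June pools, from -0.12 to 0.09. Of the October controls, replicates 2 and 4 were at -0.46 and -0.43, and replicates 1, 3 and 5 at 0.35, 0.13 and 0.41. Of the exposed October pools, replicates 1, 2 and 3 were at -0.21, -0.12 and -0.21, and replicates 4 and 5 at 0.32 and 0.23. With this component as a covariate the log2 change of cyp1a was 3.08 in June and 3.95 in October, and the calls of the 5 members stayed as they were in all 5 comparisons. As the deviations were centred within each group, this covariate could hardly move a log2 change between groups. It is thus no check on the size of the changes. In pooled whole larvae, more cells with a transcript and more transcript per cell cannot be told apart.

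In June, 4 of the 5 members were higher in larvae kept with the extract, and cyp1d1 was the exception. Of all tested genes 10.8% were called in this comparison, 5.92% as higher. The 4 members that rose were cyp1a, cyp1b1, cyp1c1 and cyp1c2, by 3.13-fold to 8.47-fold, and in each the SEC pools lay above the CTRL pools without overlap, as 6.54% of all tested genes did in the same direction.

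The gene cyp1a encodes the main enzyme of the family for polycyclic aromatic hydrocarbons and is the usual marker of AHR activation in fish. In the June controls its level was 57.4, 47.7, 54.5, 56.4 and 52.6 CPM in replicates 1 to 5. In the June SEC pools it was 472, 497.5, 436, 449.5 and 420.1 CPM. The lowest exposed pool thus stood far above the highest control pool, and the means were 455 ± 30.4 and 53.7 ± 3.84 CPM. The log2 change was 3.08 ± 0.06 (adjusted p = 4.47e-19), rank 2 by p and rank 8 by the size of the increase among all tested genes.

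CYP1B1, the enzyme encoded by cyp1b1, hydroxylates estradiol and retinoids and is known for its part in eye development. The June controls held 6.02, 5.23, 6.24, 8.32 and 7.30 CPM of cyp1b1. The exposed pools held 31.0, 26.9, 25.3, 28.5 and 28.8 CPM, each above every control. Means of 6.62 ± 1.20 and 28.1 ± 2.14 CPM gave a log2 change of 2.10 ± 0.11 (4.28-fold, adjusted p = 2.14e-11).

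The genes cyp1c1 and cyp1c2 are a pair of close paralogs, absent from mammals, that lie next to each other in the RefSeq annotation of assembly GRCz12tu, used here for gene order alone. Reads shared by both copies could be lost or split in counting, which was not tested. For cyp1c1 the June controls held 24.8, 27.1, 25.4, 24.2 and 26.1 CPM, and the exposed pools 122.6, 118, 107, 118 and 114 CPM. No exposed pool came near a control, and the log2 change was 2.18 ± 0.05 (4.54-fold, adjusted p = 4.66e-18). For cyp1c2 the controls held 6.02, 5.77, 5.54, 4.63 and 4.96 CPM, and the exposed pools 18.3, 17.6, 15.8, 16.7 and 16.6 CPM. Its log2 change of 1.65 ± 0.11 (3.13-fold, adjusted p = 8.52e-10) was the smallest of the 4, again with no overlap between the groups.

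The gene cyp1d1 encodes the fifth member, whose human counterpart is a pseudogene. The June controls held 21.8, 17.6, 14.2, 14.3 and 12.1 CPM, and the exposed pools 17.5, 17.5, 15.5, 15.7 and 20.3 CPM. The groups overlapped, with a wider spread in the controls than in the exposed pools. The log2 change was 0.11 ± 0.12 (adjusted p = 0.651), with a 95% interval from -0.15 to 0.37.

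**Figure D1:**
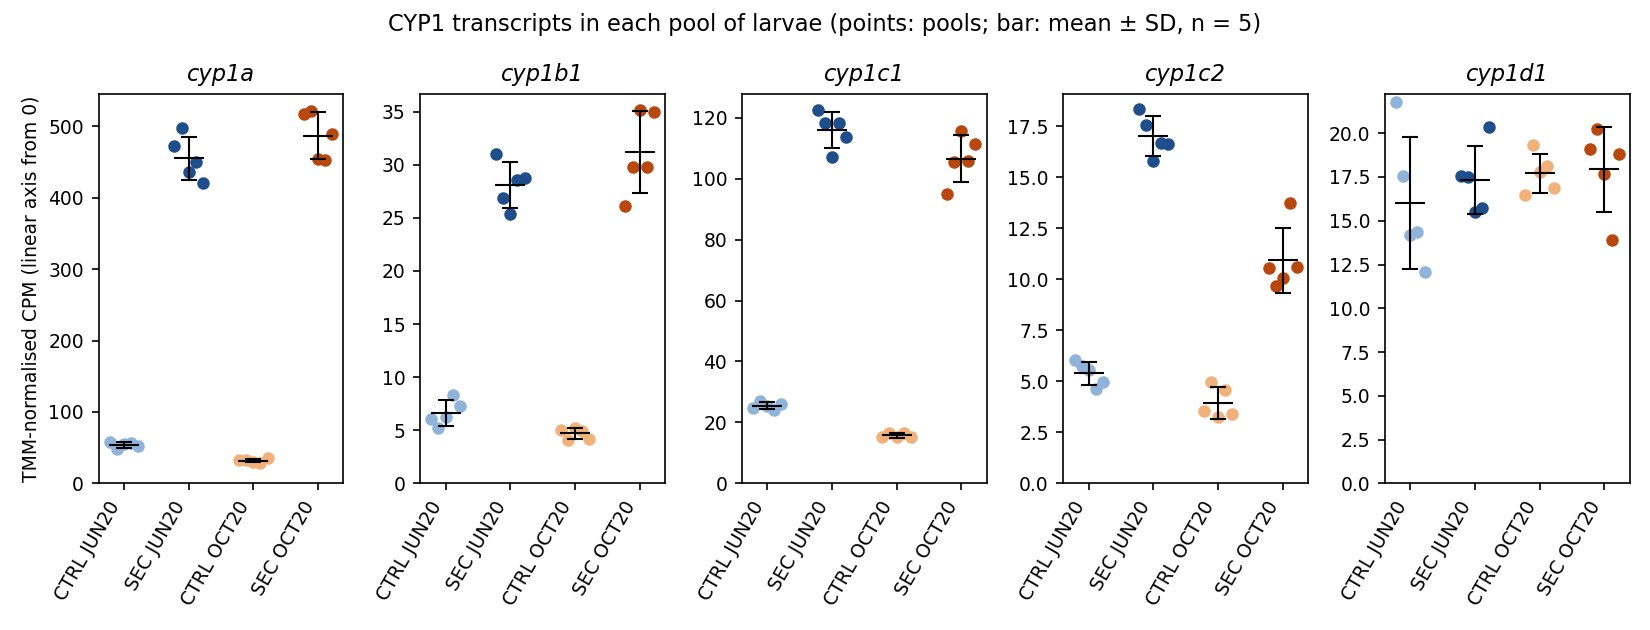
TMM-normalised CPM of each CYP1 gene (vertical axes, linear, from 0, scaled per gene) in the 4 groups, with a point per pool and the mean ± SD (n = 5). For cyp1a, cyp1b1, cyp1c1 and cyp1c2 the SEC pools of both campaigns lie above their controls without overlap, while the cyp1d1 pools lie between 12.1 and 21.8 CPM in all groups.

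In October the same 4 members, cyp1a, cyp1b1, cyp1c1 and cyp1c2, were called as higher, by 2.78-fold to 15.4-fold. Of all tested genes 18.0% were called in October, 9.54% as higher. That more genes were called in October than in June depended on the fit. With only the SEC and CTRL groups of a campaign fitted, 3666 genes were called in June and 2763 in October. The SEC pools again lay above the CTRL pools without overlap in all 4, against 6.43% of tested genes, and 3.86% of tested genes were called as higher in both campaigns.

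Levels of cyp1a in the October controls were 32.0, 32.0, 30.3, 28.9 and 34.8 CPM, below every June control. The exposed October pools held 517, 521, 454, 453 and 489.9 CPM, in the range of the exposed June pools or above it. The means were 31.6 ± 2.20 and 487 ± 33.0 CPM, and the log2 change of 3.95 ± 0.07 had the smallest p of all tested genes (15.4-fold, adjusted p = 1.29e-20).

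For cyp1b1 the October controls held 5.03, 4.08, 5.24, 4.96 and 4.21 CPM, and the exposed pools 26.1, 29.8, 35.2, 29.8 and 35.0 CPM. The exposed pools spread more widely than the controls but stayed clear of them, and the log2 change was 2.73 ± 0.11 (6.65-fold, adjusted p = 1.89e-13). For cyp1c1 the controls held 15.1, 16.4, 15.3, 16.5 and 15.3 CPM, and the exposed pools 94.98, 105, 116, 106 and 111 CPM. The controls were tight and all below the June controls, and the log2 change was 2.76 ± 0.05 (6.78-fold, adjusted p = 1.23e-19).

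For cyp1c2 the October controls held 3.53, 4.98, 3.27, 4.55 and 3.37 CPM, and the exposed pools 10.6, 9.69, 10.1, 13.7 and 10.6 CPM. Replicate 4 of the exposed pools stood above the other four, and the groups did not overlap. The log2 change was 1.48 ± 0.11 (2.78-fold, adjusted p = 4.38e-09), which placed cyp1c2 at rank 107 by the size of the increase, against rank 29 in June. Levels of cyp1d1 were 16.5, 19.3, 17.8, 18.1 and 16.9 CPM in the controls and 19.1, 20.2, 17.7, 13.9 and 18.8 CPM in the exposed pools. The groups overlapped, and the log2 change was 0.02 ± 0.13 (adjusted p = 0.944, 95% interval from -0.24 to 0.28).

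**Figure D2:**
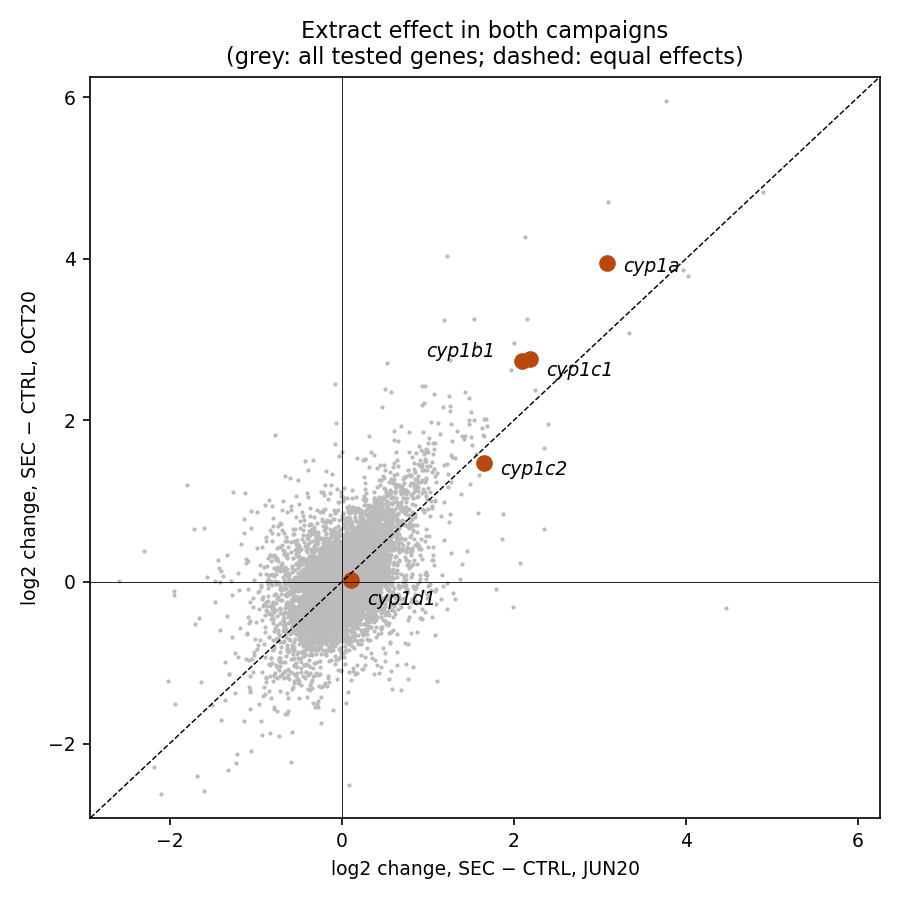
Log2 change with the extract in June (horizontal) and October (vertical) for each tested gene (grey) and the 5 CYP1 genes (orange), with the dashed line at equal effects. The genes cyp1a, cyp1b1 and cyp1c1 lie above the line, cyp1c2 lies just below it at 1.65 and 1.48, and cyp1d1 lies near the origin.

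The log2 effect of the extract, relative to the controls of the same campaign, was larger in October for 3 members, cyp1a, cyp1c1 and cyp1b1. Their controls were lower in October, and their exposed levels did not pass the test between campaigns with TMM, as given below. Of all tested genes 1.03% differed in their effect between campaigns, 0.787% with a higher effect in October. The difference between the 2 log2 changes was 0.86 ± 0.09 for cyp1a (adjusted p = 8.16e-06), 0.58 ± 0.07 for cyp1c1 (adjusted p = 0.000143) and 0.63 ± 0.15 for cyp1b1 (adjusted p = 0.0467). The call of cyp1b1 was lost when any of 17 of the 20 libraries was left out, with differences from 0.54 to 0.71 over the 20 libraries. It was kept without SEC JUN20 replicate 1, CTRL JUN20 replicate 2 or SEC OCT20 replicate 1. For cyp1c2 the difference was -0.17 ± 0.16 (adjusted p = 0.732, 95% interval from -0.50 to 0.15), and for cyp1d1 it was -0.09 ± 0.18 (adjusted p = 0.909, interval from -0.46 to 0.28).

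The same libraries also give the campaigns side by side within CTRL and within SEC, and these comparisons share their libraries with the difference above. Between the control groups, 4 members were lower in October, where 5.80% of all tested genes were called and 2.97% were lower. The log2 difference, OCT20 minus JUN20, was -0.76 ± 0.06 for cyp1a (adjusted p = 1.41e-07) and -0.70 ± 0.05 for cyp1c1 (adjusted p = 6.22e-08). In these 2 genes every October control lay below every June control, as in 3.14% of tested genes. The differences of cyp1b1 at -0.48 ± 0.12 (adjusted p = 0.0203) and cyp1c2 at -0.47 ± 0.12 (adjusted p = 0.0233) came with overlapping groups.

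Both of these smaller control differences depended on single libraries or on the groups fitted. The cyp1b1 call was lost without CTRL JUN20 replicate 4 (-0.39, adjusted p = 0.0501) or CTRL OCT20 replicate 5 (-0.44, adjusted p = 0.0576). The cyp1c2 call was lost without any of CTRL JUN20 replicates 1, 2 and 3 or CTRL OCT20 replicates 1, 3 and 5, with differences from -0.46 to -0.41. When the 2 control groups were fitted alone, the adjusted p was 0.0681 for cyp1b1 and 0.0839 for cyp1c2. For cyp1d1 the controls differed by 0.14 ± 0.13 (adjusted p = 0.556). The campaigns and anything else that differed between the June and October experiments cannot be told apart in these comparisons.

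Between the exposed groups cyp1c2 was the 1 member called, where 12.0% of all tested genes were called and 5.58% were lower. It was lower in October by a log2 difference of -0.64 ± 0.10 (adjusted p = 0.000413), from 17.0 ± 0.978 to 10.9 ± 1.60 CPM, with no overlap, as in 5.45% of tested genes. The exposed levels of cyp1a, 455 and 487 CPM, differed by 0.10 ± 0.06 (adjusted p = 0.29, 95% interval from -0.02 to 0.22). Those of cyp1b1, 28.1 and 31.2 CPM, differed by 0.15 ± 0.10 (adjusted p = 0.323). Those of cyp1c1, 116 and 107 CPM, differed by -0.12 ± 0.05 (adjusted p = 0.107, 95% interval from -0.22 to -0.02). With library totals in place of TMM this difference was called at -0.18 (adjusted p = 0.0242). In CPM, the exposed minus control difference was 401 in June and 456 in October for cyp1a, 90.5 and 90.8 for cyp1c1, 21.5 and 26.5 for cyp1b1, and 11.6 and 6.98 for cyp1c2.

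**Figure D3:**
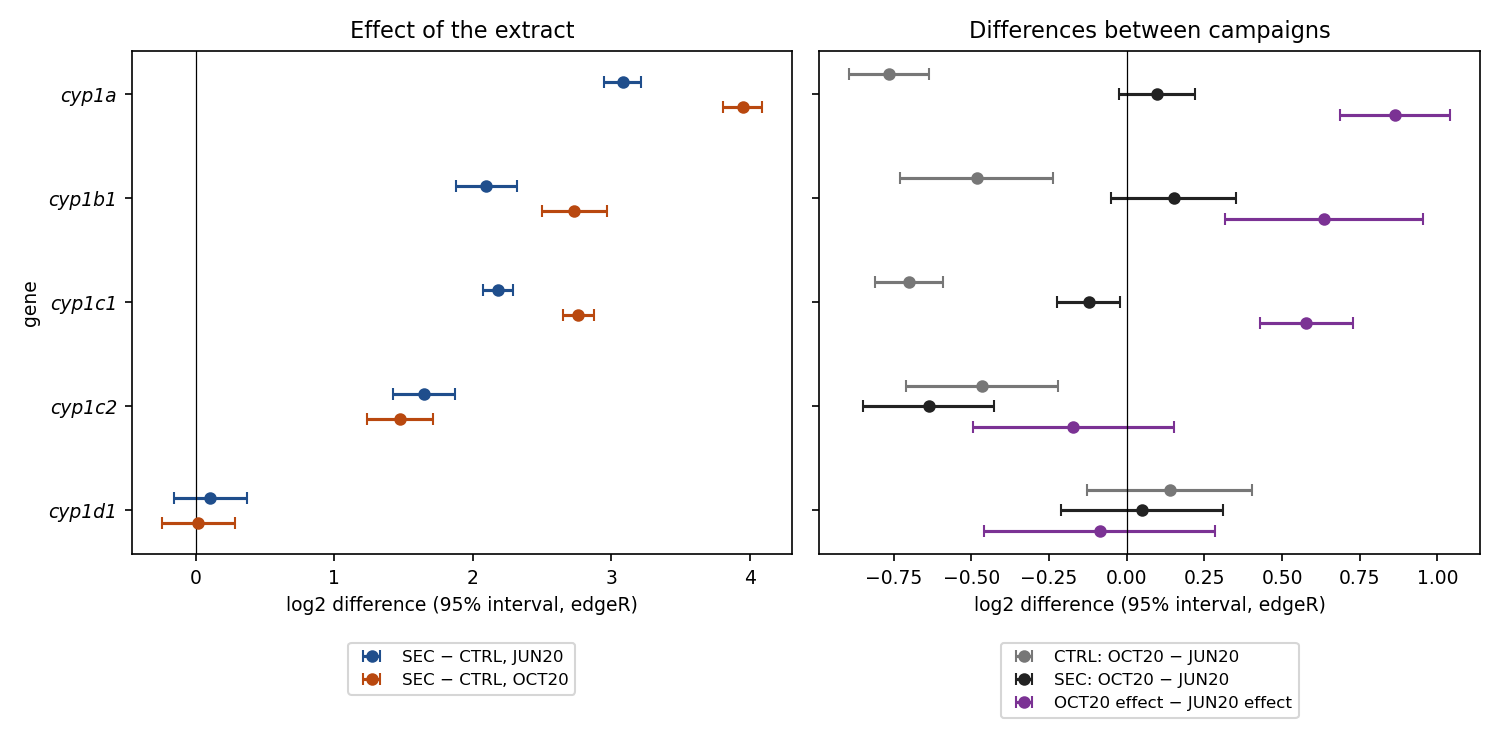
Log2 differences with 95% intervals for each CYP1 gene, left for SEC minus CTRL in each campaign and right for October minus June in CTRL, in SEC and in the effect of the extract. The controls of cyp1a and cyp1c1 sit near -0.7. Their exposed pools sit at 0.10 for cyp1a and at -0.12 for cyp1c1, the latter with an interval from -0.22 to -0.02. The gene cyp1c2 is below 0 in both CTRL and SEC.

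Summed over the 5 members, the family took 107 ± 5.30 CPM in the June controls and 634 ± 35.5 CPM in the exposed June pools. In October the sums were 73.7 ± 2.05 and 654 ± 28.6 CPM. The share of cyp1a in this sum was 50.1% in the June controls and 71.8% in the exposed pools, and 42.9% and 74.5% in October. The share of cyp1d1, whose level did not pass the test in any comparison, was 14.8% and 2.74% in June and 24.0% and 2.74% in October. These shares are of counts and not per transcript length, so they compare groups and not the abundance of 1 member with another. No pool was highest in all members of its group, and the most was 3 of 5 members, in replicate 1 of CTRL JUN20 and of SEC JUN20. Replicate 3 of SEC JUN20 held the lowest level of its group in 4 of 5 members.

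Profiles over the 20 libraries were also compared between genes. The measure was the mean absolute difference in log2 CPM (prior count 2) after each gene was centred on its mean over the libraries, among 15950 genes with a mean of at least 1 CPM. The profiles of cyp1b1 and cyp1c1 were each other's closest at 0.17, whereas the paralogs cyp1c1 and cyp1c2 lay 0.45 apart. After cyp1c1, cyp1b1 was closest to dhrs13l1, a dehydrogenase gene, eevs, which encodes an enzyme of gadusol synthesis, foxq1a and nfe2l2b, a paralog of Nrf2. For cyp1c1 the list after cyp1b1 was dhrs13l1, eevs, hebp2, a haem-binding protein gene, and foxq1a.

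The closest genes to cyp1a were the repressor gene ahrra at 0.42, then cyp1c1 at 0.52, a gene named cyp2y3 (ENSDARG00000068493) at 0.55, cyp1b1 at 0.56 and cyp2x12 at 0.62. The symbol cyp2y3 is carried by more than 1 gene of the table, and whether these genes share reads was not tested. Closest to cyp1c2 were vwa10.1 at 0.26, eevs, pkhd1l1, gsr, the glutathione reductase gene, and alas1, the gene of the first enzyme of haem synthesis. The nearest to cyp1d1 were kirrel1b, hoxb6b, plxnc1, cdk5rap1 and fabp3, all with log2 changes between -0.05 and 0.18. These distances are descriptions over 20 libraries that share their groups and carry no test.

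The genes beside the members in the same annotation were read as well. Of the 2 nearest genes on each side, 6 others were in the table and tested. None of the 6 lies beside cyp1a, whose neighbours were not found in the table by symbol. The set was taken by position after the values of the members were known. None of the 6 was called in June, and 2 were called in October, against 10.8% and 18.0% of all tested genes. Over the 6, called or not, log2 changes ran from -0.09 to 0.50 in June and from -0.24 to 0.64 in October. Both upper ends were those of kifl, near cyp1d1, with a mean of only 0.434 CPM. It was not called, at 0.50 ± 0.28 (adjusted p = 0.269) and 0.64 ± 0.28 (adjusted p = 0.119). The gene gchfr, next to cyp1c2, was at -0.05 ± 0.07 in June and -0.24 ± 0.07 in October (adjusted p = 0.0276). The gene rmdn2, near cyp1b1, was at -0.02 ± 0.09 and 0.32 ± 0.10 (adjusted p = 0.022).

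Around the CYP1 genes stands the receptor pathway, taken as a list of 11 receptors, partners and repressors. This list and those below were chosen with earlier results of these data known. In June 3 of 11 were higher and 2 lower, and in October 5 were higher and 1 lower. Over all tested genes 5.92% were higher and 4.90% lower in June, and 9.54% and 8.49% in October. The medians of the list were 0.12 and 0.17, against -0.005 and -0.014 over all tested genes. The receptor gene ahr2 rose from 154 ± 7.52 to 205 ± 14.5 CPM in June, a log2 change of 0.41 ± 0.05 (adjusted p = 3.95e-06), and by 0.60 ± 0.05 in October (adjusted p = 5.80e-09). The receptor gene ahr1b fell by 0.34 and by 0.46 in log2 terms. The third receptor gene, ahr1a, did not pass the test in either campaign, at -0.16 ± 0.21 and 0.17 ± 0.22. Of the partners, arnt was at 0.13 ± 0.07 in June and rose by 0.23 ± 0.07 in October, and arnt2 fell by 0.14 in June and was at -0.09 ± 0.04 in October. The June call of arnt2 was lost without SEC JUN20 replicate 2 (adjusted p = 0.0563). The October call of arnt was lost without SEC OCT20 replicate 2 or 4 or CTRL OCT20 replicate 3 or 4 (adjusted p up to 0.0707). Among the chaperones of the unbound receptor, ptges3a was called in October, at 0.28 ± 0.08, a call lost without CTRL OCT20 replicate 1 or 3 (adjusted p up to 0.0576), and aip, ptges3b and hsp90ab1 lay between -0.11 and 0.12 in both campaigns without passing the test.

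The repressor genes rose with the CYP1 genes. The level of ahrra ran from 1.98 to 3.11 CPM in the June controls and from 10.0 to 11.8 CPM in the exposed pools, and in October from 0.405 to 0.862 and from 9.02 to 12.1 CPM. Its log2 change was 2.13 ± 0.12 in June and 4.28 ± 0.15 in October, a difference of 2.15 ± 0.20 (adjusted p = 7.05e-06). The October change and this difference rest on a low control level of ahrra, with a mean of 0.563 CPM. As with cyp1a, the controls differed between campaigns, at -2.10 ± 0.17 (adjusted p = 1.41e-07), and the exposed pools were at 0.05 ± 0.11 (adjusted p = 0.801). The second repressor gene, ahrrb, rose by 0.83 ± 0.16 and 0.64 ± 0.17. Its levels were low, with means of 0.990 and 1.73 CPM in the June controls and exposed pools, and 0.832 and 1.30 CPM in October.

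Of 9 other genes known as AHR targets in fish, 8 were tested, with 6 higher and 1 lower in June and 7 higher and 1 lower in October. Shares of all tested genes were 5.92% higher and 4.90% lower in June, and 9.54% and 8.49% in October. The list was chosen with earlier results of these data known, so its counts are a description. The transcription factor gene foxq1a rose by 1.48 ± 0.09 and 1.95 ± 0.10, and its paralog foxq1b by 0.42 ± 0.10 and 0.91 ± 0.11. The quinone reductase gene nqo1 rose by 0.54 ± 0.09 and 0.67 ± 0.09. The sulfotransferase gene sult6b1 rose by 0.79 ± 0.07 and 1.20 ± 0.07, and its effects differed between campaigns by 0.40 ± 0.10 (adjusted p = 0.0439), a call lost without any of 15 of the 20 libraries. The close copies gstp1 and gstp2, between which reads could be split, rose by 0.74 ± 0.10 and 0.93 ± 0.10 and by 1.26 ± 0.29 and 2.74 ± 0.31. The gene tiparp, whose product modifies and restrains the receptor in mammals, was at 0.10 ± 0.05 in June (adjusted p = 0.265) and rose by 0.30 ± 0.06 in October. The cartilage regulator gene sox9b, which is known to fall when Ahr2 is activated in zebrafish, fell by 0.41 and 0.61.

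**Figure D4:**
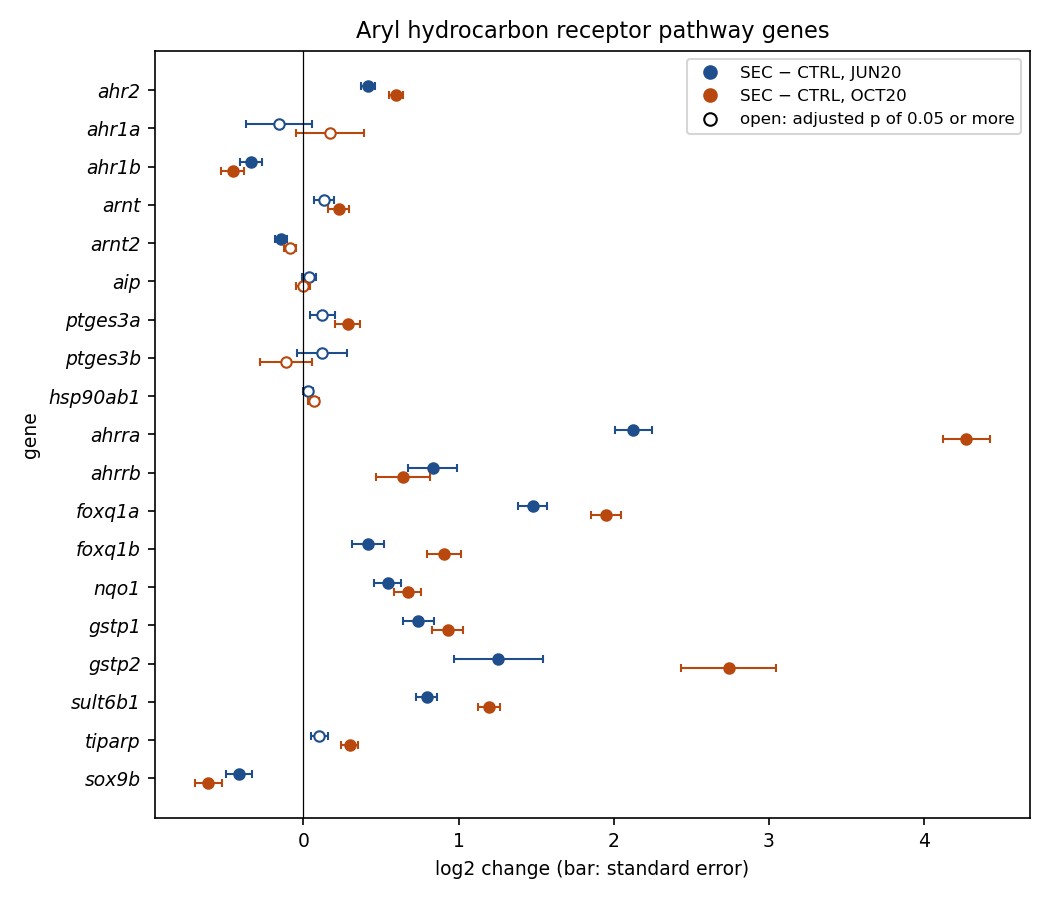
Log2 change with the extract, with its standard error, for 11 AHR receptor, partner and repressor genes and 8 other AHR targets, in June (blue) and October (orange), with open points where the adjusted p was 0.05 or more. The repressor gene ahrra stands highest at 2.13 and 4.28, the latter over a low control mean of 0.563 CPM, and ahr1b and sox9b lie below 0 in both campaigns.

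P450 enzymes need electrons and haem, so genes of electron donors and of haem synthesis and breakdown were listed too. Of 8 electron donor genes 4 were higher in each campaign and none was lower. The shares of all tested genes were 5.92% higher and 4.90% lower in June, and 9.54% and 8.49% in October. The reductase gene porb rose by 0.84 ± 0.05 and 1.39 ± 0.05, pora by 0.23 ± 0.05 and 0.49 ± 0.05, and the cytochrome b5 genes cyb5a by 1.27 ± 0.16 and 1.57 ± 0.17 and cyb5b by 0.42 ± 0.10 and 0.59 ± 0.11. Of 14 tested genes of haem synthesis and breakdown, counted together, 3 were higher and 1 lower in June, and 5 higher and 1 lower in October. In both campaigns the higher genes of synthesis were alas1 and fech alone, and the other higher genes belong to breakdown. The gene alas1 rose by 1.05 ± 0.12 and 1.36 ± 0.12, and fech, whose product inserts iron into protoporphyrin to make haem, by 0.68 ± 0.07 and 0.92 ± 0.08. The gene blvra, for biliverdin reductase, rose by 0.89 ± 0.07 and 1.31 ± 0.07, whereas hmox1a, for a haem-degrading oxygenase, fell by 1.23 and 2.24 in log2 terms. The level of hmox1a was 9.41 and 20.5 CPM in the June and October controls, and 4.00 and 4.36 CPM in the exposed pools. The oxygenase gene hmox2a, at 49.3 and 57.1 CPM in these controls, was at 0.38 ± 0.14 in June (adjusted p = 0.0991). In October hmox2a rose by 0.45 ± 0.14 (adjusted p = 0.0337). A further oxygenase gene, hmox2b, was at -0.04 ± 0.07 and -0.06 ± 0.08.

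The rest of the P450 superfamily is given by its counts beside the 4 of 5 CYP1 genes. Among all tested genes 5.92% were higher and 4.90% lower in June, and 9.54% and 8.49% in October. Of 75 other tested P450 genes 23 were higher and 3 lower in June, and 30 higher and 5 lower in October. Family 2, which oxidises a broad range of drugs and fatty acids, had 16 of 39 higher in June and 21 of 39 higher and 1 lower in October, with cyp2k18 at 3.77 ± 0.24 and 5.95 ± 0.26 and cyp2x12 at 4.03 ± 0.32 and 3.79 ± 0.32. Of 5 family 3 genes 1 rose, cyp3a65, by 0.87 ± 0.11 and 1.19 ± 0.11. Of 4 family 4 genes cyp4t8 rose by 0.43 ± 0.08 and 0.59 ± 0.08, and cyp4v8 fell by 0.38 and 0.46. Its June call was lost without SEC JUN20 replicate 2 or CTRL JUN20 replicate 1 or 4 (adjusted p up to 0.0608). Among 27 genes of family 7 and above, 5 were higher and 2 lower in June and 7 higher and 3 lower in October, with the largest increase in the brain aromatase gene cyp19a1b at 4.90 ± 0.10 and 4.82 ± 0.10.

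Conjugating enzymes act on the products of CYP1 enzymes. Their counts stand beside 5.92% higher and 4.90% lower of all tested genes in June, and 9.54% and 8.49% in October. Of 28 UDP-glucuronosyltransferase genes 13 were higher in June, and 19 were higher and 1 lower in October, among them ugt1a1 at 0.97 ± 0.15 and 1.52 ± 0.15. Of 19 sulfotransferase genes 4 were higher and 2 lower in June, and 6 higher and 3 lower in October. Of 17 glutathione transferase genes 7 were higher and 2 lower in June, and 10 higher and 4 lower in October, with gsto1 at 0.63 ± 0.06 and 1.18 ± 0.06 and gstt1b at 0.88 ± 0.10 and 1.47 ± 0.10.

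**Figure D5:**
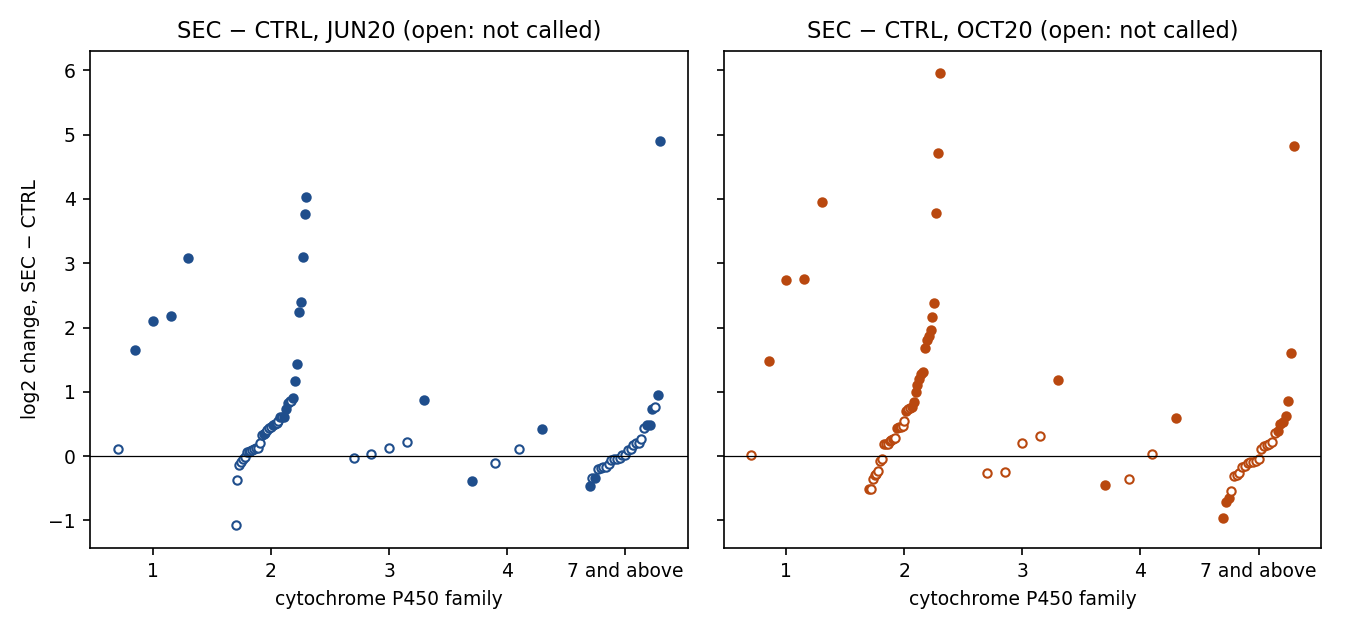
Log2 change with the extract for each tested P450 gene, grouped by family and sorted within it, in June (left) and October (right), with filled points for called genes. In family 1, 4 of 5 genes are called in both campaigns, against 16 and 21 of 39 as higher in family 2.

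Markers of larval tissues were read beside the CYP1 genes. Over all tested genes 5.92% were higher and 4.90% lower in June, and 9.54% and 8.49% in October. Of 6 epidermis markers 5, all keratin genes, were lower in both campaigns. The other marker, epcam, was not called, at -0.08 ± 0.07 in June and 0.04 ± 0.07 in October. The summed level of the 6 ran from 12309.7 to 15611 CPM in the June controls and from 8629.9 to 9789 CPM in the exposed pools. In October it ran from 13313 to 14894 and from 6517 to 9951 CPM. Of 7 hepatocyte markers none was called in June and 1 was higher in October, with sums from 2852 to 3911 CPM over the controls and from 2930.2 to 3500.1 CPM over the exposed pools. None of 6 blood vessel markers was called in either campaign, with sums of 147 to 173 CPM over all pools. Among 6 enterocyte markers 1 was higher in June, and 2 were higher and 1 lower in October. Of 4 heart markers none was called in June and 2 were lower in October, of 5 pronephros markers none and then 3 were higher, and of 3 ionocyte markers 1 and then 2 were higher and 1 lower each time. Of 4 neuron markers 2 were lower in June, and of 4 skeletal muscle markers 1 was lower each time. A single red cell marker passed the filter and was not called. The other red cell entries, some of which share a symbol, held at most 7 counts in any library. Of these entries 1 in June and 2 in October were at 0 in every pool of their group, a difference of a few counts at most. The part of these markers in the CYP1 differences was not tested. Between the control groups 5.80% of all tested genes were called, 2.97% as lower in October. There 2 of 4 heart markers, 1 of 6 blood vessel markers and 1 of 3 ionocyte markers were higher in October, and 1 of 5 pronephros markers was lower. No marker of the epidermis, hepatocyte, enterocyte, neuron, skeletal muscle and red cell lists was called there. Between the exposed groups 12.0% of all tested genes were called, 1481 genes as higher in October and 1289 as lower. There 2 of 6 enterocyte markers were lower. Higher were 2 of 4 neuron, 2 of 5 pronephros and 2 of 3 ionocyte markers. So was 1 marker each of the blood vessel, heart, hepatocyte and skeletal muscle lists, and none was called in the epidermis and red cell lists.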

How the data were processed

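Libraries were stranded mRNA libraries with molecular identifiers, per the labels' protocols. The deposited values are the authors' raw read counts per gene. Reads were aligned with STAR 2.7.8a to GRCz11, with CASAVA, SAMtools and DESeq2 (given as 3.17) also named, as the submitters' processing notes list them. How reads were counted, with which annotation and whether by identifier, is not stated in the labels or notes. The table of the series equalled the per-sample files in 20 of 20 libraries.

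Genes were kept by edgeR's filterByExpr with a minimum count of 10, which left 23121 of 32520. Counts were scaled by TMM and tested in edgeR 4.0.16 by its quasi-likelihood F test (two-sided, Benjamini-Hochberg adjustment over all tested genes) in a single fit of 4 group means over 20 libraries. The standard error is the absolute log2 change divided by the square root of F. The fit was run on simulated counts of independent libraries with the same spread per gene in all groups, taken from this same fit. Its outcome was thus largely fixed in advance and is no check on the calls. This simulation does not cover the wider spread of the October pools. Alternatives were DESeq2 1.42.0, RLE factors, library totals, other filters, a replicate block, a covariate, fits of the compared groups alone, the per-sample files and leaving out each library.

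The members and lists were chosen with earlier results of these data known. The named genes were the members, the receptor list, the 4 called genes of smallest adjusted p per other list and campaign, and the 5 genes closest in profile to each member, without clone names. The text gives a selection of these. The genes tiparp, sox9b, gchfr, rmdn2, kifl, epcam, hmox2a and hmox2b, outside the rule, were named after their values were seen. No genome or sequence table was used, so no coordinates, lengths or sequences are given.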

Additional observations from a re-analysis of the deposited data

Results flagged for a closer look

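A single pool stood apart from the other four of its group in 1 of 20 sets of 5 pools examined, 5 members in 4 groups. It was SEC OCT20 replicate 4, with 13.7 CPM of cyp1c2. Chance sets apart about 1 in 20 such sets.

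The effect of the extract differed between the campaigns in 5 genes of the family and its receptor pathway, by the test of the difference itself. They were found among the 5 members, 11 genes of the receptor list and 8 other AHR targets, where 1.03% of all tested genes differed. The log2 effect in October minus that in June was 0.86 for cyp1a, 0.63 for cyp1b1, 0.58 for cyp1c1, 2.15 for ahrra and 0.40 for sult6b1. The calls of cyp1b1 and sult6b1 were lost when most of the libraries were left out singly. Each of the 5 genes had a lower control level in October, with log2 differences of -0.76, -0.48, -0.70, -2.10 and -0.49, and the difference of effects shares those control libraries. The control difference of cyp1b1 lost its call when the control groups were fitted alone. The October control level of ahrra was low, with a mean of 0.563 CPM.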

How the results depend on the processing

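The higher levels of cyp1a, cyp1b1, cyp1c1 and cyp1c2 with the extract were called in both campaigns under every alternative run, and the differences of effect of cyp1a and cyp1c1 under every alternative run for them. Over all alternatives 675 of 710 member values kept their sign and their side of the threshold, 30 lost the call, 1 gained it and 4 changed sign. Part of this agreement was fixed in advance, so the tally is no measure of robustness. The per-sample files equalled the table, and the covariate could hardly move a log2 change. Many of the libraries left out were also not part of the comparison. The difference of effect of cyp1b1 lost its call with library totals (0.59, adjusted p = 0.0677), with no filter (0.63, adjusted p = 0.0563) and with the replicate block (0.63, adjusted p = 0.0897), and ran from 0.54 to 0.71 with a library left out. Fitting the compared groups alone lost the control differences of cyp1b1 (-0.48) and cyp1c2 (-0.45), which left 2 members called in place of 4. With a library left out these ran from -0.56 to -0.39 and from -0.56 to -0.41, with 2 to 4 members called, and 2 without CTRL OCT20 replicate 5. Library totals called the cyp1c1 difference between exposed groups (-0.18), for 2 members in place of 1, and turned that of cyp1d1 to -0.0093 and of ahrra to -0.0099. The October effect of cyp1d1 ran from -0.026 to 0.098, below 0 without SEC OCT20 replicate 1 or 2 or CTRL OCT20 replicate 1. In October aip turned to 0.00072 with DESeq2 and ran from -0.026 to 0.033, and ptges3b ran from -0.23 to 0.042. Of the other genes, arnt2 in June lost its call with library totals, arnt in October with the replicate block and with the compared groups alone, ptges3a in October with the latter, and sult6b1 its difference of effect with library totals, no filter and the block. Over all genes, DESeq2 called 606 differences of effect and 2063 control differences, against 239 and 1341. The component as covariate called 4467 genes in June, 877 differences of effect, 3802 control and 5310 exposed differences, against 2501, 239, 1341 and 2770. The compared groups alone gave 3666 genes in June, 2763 in October, 565 control and 3592 exposed differences, against 2501, 4168, 1341 and 2770. In these fits June had more called genes than October, the reverse of the single fit. Leaving out a library gave 134 to 330 differences of effect, 704 to 2410 control and 1692 to 3225 exposed differences. The causes were not tested. Under library totals the higher and lower calls were 1800 and 724 in June (1368 and 1133 with TMM) and 1985 and 2271 in October (2205 and 1963). They were 122 and 135 for the difference of effects (182 and 57), 491 and 786 between controls (654 and 687) and 796 and 2771 between exposed groups (1481 and 1289). Same-numbered replicates did not deviate together: 2 of 10 pairs correlated above 0.1, and 1 of 10 exposed pools correlated best with its own number. The replicate block called 116 differences of effect over all genes and changed no further call of a member where it could be fitted, which excludes the comparisons of one group between campaigns. Shares per transcript length were not run, as no lengths were used.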
